A study of Mus musculus with 3 samples.

Results

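The genes for the proteins of the cytosolic ribosome were followed across 3 arrays of mouse mesenchymal progenitors. They were chosen by symbol in the platform annotation: every symbol that starts with Rpl or Rps and a digit or the letter a, or with Rplp, without the Rps6k kinases, on probe sets annotated to exactly 1 gene. The rule took 75 of the 17097 genes on the arrays, read by 139 probe sets. Where a gene had several probe sets, the one with the highest mean intensity stood for it. Of the 75 genes, 69 reached an intensity of 64 (6 on the log2 scale), the minimum used here to call a gene measured, and each of the 69 did so on all 3 arrays. No member was therefore kept because of a high value on 1 array alone.

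The cells, called PaS+ in the labels, came from bone marrow of C56Bl/6 mice of 8 weeks. They were sorted, kept in MesenCult medium at 1% oxygen for 7 days and transduced overnight with lentivirus, and RNA was taken 4 days after transduction. The groups were a control shRNA (shCTR), an shRNA against HIF-1α (shHIF-1a) and an shRNA against HIF-2α (shHIF-2a), which are subunits of hypoxia-inducible factors that oxygen destabilises, with 1 array each. All 3 groups thus shared low oxygen, lentivirus and a hairpin, and there was no array at ambient oxygen or without virus. The labels give no hairpin sequence, number of hairpins per target or number of animals behind a culture. With 1 array per group there was no spread between samples and no test, and every difference below compares 1 array with 1 other.

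The ribosome is built from a small and a large subunit, each an assembly of ribosomal RNA and many small, mostly basic proteins. Most of these proteins are needed in equal numbers. Transcripts of these proteins are among the most abundant of growing cells. Most begin with a terminal oligopyrimidine (TOP) tract, a C followed by an unbroken run of C and T, through which the kinase complex mTORC1 and the RNA-binding protein LARP1 set their translation in response to nutrients, oxygen and growth signals. This control acts on translation and stability, and an array measures the amount of transcript alone.

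The tract was looked for in the RefSeq table of start windows (build GRCm38.p6), because it is the sequence feature that joins the class. The table listed 70 starts for 59 of the 75 genes. A start that fell exactly on C with at least 4 further bases of C or T was found at 11 of the 70 (15.7%), against 2.51% of all 32851 listed starts. The windows below show 20 bases before the start and the 20 bases from it, 5′ to 3′ on the strand of the gene, with the tract in capitals. They are the measured members whose tract had at least 7 letters. Rps19bp1, a dim member under the minimum, is shown last as 1 example of a listed start without such a tract. The same holds for 44 of the 53 measured members with a listed start. Rpl14 and Rps15a, also under the minimum, have tracts of 6 and 8 letters.
Rpl15 (chr14:18270967-18271006, minus strand): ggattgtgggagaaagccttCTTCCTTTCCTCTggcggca
Rpl28 (chr7:4792945-4792984, plus strand): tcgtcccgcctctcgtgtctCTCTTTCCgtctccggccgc
Rpl35 (chr2:39005112-39005151, minus strand): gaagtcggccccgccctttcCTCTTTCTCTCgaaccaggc
Rpl35a (chr16:33056462-33056501, plus strand): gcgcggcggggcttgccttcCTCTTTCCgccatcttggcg
Rps6 (chr4:86857348-86857387, minus strand): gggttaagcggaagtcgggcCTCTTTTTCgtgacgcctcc
Rps10 (chr17:27635225-27635264, minus strand): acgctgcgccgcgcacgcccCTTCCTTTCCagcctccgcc
Rps18 (chr17:33955646-33955685, minus strand): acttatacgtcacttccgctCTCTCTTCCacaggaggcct
Rps19bp1 (chr15:80264287-80264326, minus strand): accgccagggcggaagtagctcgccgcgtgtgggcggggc

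Other short motifs were counted over the whole window of 300 bases (250 before to 50 after the start) on both strands. CCGGAAG, a core bound by ETS factors, was in 26 of 70 member windows (37.1%) against 8.86% of all windows. AAGATGG, a core of the YY1 site, was in 15.7% against 6.34%, and TATAAA in 11.4% against 13.6%. ACGTG, a core of the hypoxia response element that also forms part of the palindrome CACGTG, was in 21 of 70 windows (30%) against 19.6% of all windows. GCGTG, the second form of that core, was in 40 of 70 (57.1%) against 32.4%. The member windows had a median GC content of 58.5% against 52.7% for all windows, and its part in these shares was not tested. A match describes the letters in the window and shows no binding. Among the measured members, the 9 with an exact tract at the start had a median log2 difference from control of -0.02 on the shHIF-1a-labelled array and 0.00 on the shHIF-2a-labelled array. For the 44 with another listed start both medians were 0.00.

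The label of the class was checked against a fixed list of 80 structural proteins. The rule took 65 of them, and 63 were measured: 37 of the large subunit, 23 of the small subunit and the 3 of the stalk. Of the rest, Rpl5 and Rps27 are among those not analysed here. The other 10 members were no structural proteins of that list: 6 paralogues, 3 symbols of pseudogenes and Rps19bp1. Ribosomal protein genes have many processed pseudogenes, and probe sets may read such copies too. Of the 69 representative probe sets, 7 end in _s_at and 15 in _x_at, which in Affymetrix naming mark probes shared with other transcripts, 37 end in _a_at (shared between transcripts of 1 gene) and 10 have no such mark.

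For the arrays as a whole, 4143 to 4421 of 45141 probe sets per array reached 64, and the highest of 23 nonspecific control probe sets read 3.47. Hif1a read 352 with the control hairpin and 332 with both others, so its probe set did not separate the hairpins. Epas1, the HIF-2α gene, read 5.09, 9.44 and 3.21 in the order shCTR, shHIF-1a and shHIF-2a. The shRNA arrays are therefore called by their labels below, and each direction rests on those labels. Of 11 mesenchymal markers on the arrays 10 exceeded the nonspecific level on each array, with summed intensities of 1597, 1634 and 1334 in the same order. Of the brighter ones, Cxcl12, a chemokine that retains blood stem cells, was lower on the shHIF-2a-labelled array, at 249.96, 178 and 72.3. So were the collagen gene Col1a1, at 130.4, 127 and 48.1, and Nt5e, at 407, 458 and 324. Cd44 went the other way, at 500, 539 and 577, and Itgb1 stood at 215 on every array. The marker that did not exceed the nonspecific level was another collagen gene, Col1a2, at 1.89 or less. Of 9 blood cell markers the transferrin receptor gene Tfrc, which dividing cells of many kinds express, exceeded it on every array, at 153, and Cd68 on the shHIF-2a-labelled array, at 7.24. The pan-leukocyte gene Ptprc read 1.05 on all 3. Of 6 endothelial markers only Egfl7 exceeded it, at up to 5.45.

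Transcripts of ribosomal proteins read far above the minimum and nearly alike on the 3 arrays. The 69 measured members read 431 to 1342 on the control array (median 864), 431 to 1342 on the shHIF-1a-labelled array (median 851) and 402 to 1342 on the shHIF-2a-labelled array (median 852). No member differed 2-fold in any of the 3 comparisons, where 1.06% of the 2738 measured genes did so between the shHIF-1a-labelled and control arrays, 2.52% between the shHIF-2a-labelled and control arrays and 1.68% between the shRNA arrays. By a smaller rule of 1.2-fold (0.26 on the log2 scale), 1 member differed: Rps19 was lower on the shHIF-1a-labelled array. The share of measured genes at least 1.2-fold lower there was 1.86%, and at least 1.2-fold higher 9.86%. On the shHIF-2a-labelled array 0 of 69 members passed 1.2-fold in either direction, against 18.3% of measured genes higher and 9.39% lower. Between the shRNA arrays 0 of 69 did, against 10.8% higher and 10.6% lower. Because the cells were measured in bulk, a change in the number of expressing cells and a change in RNA per cell cannot be told apart.

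**Figure D1:**
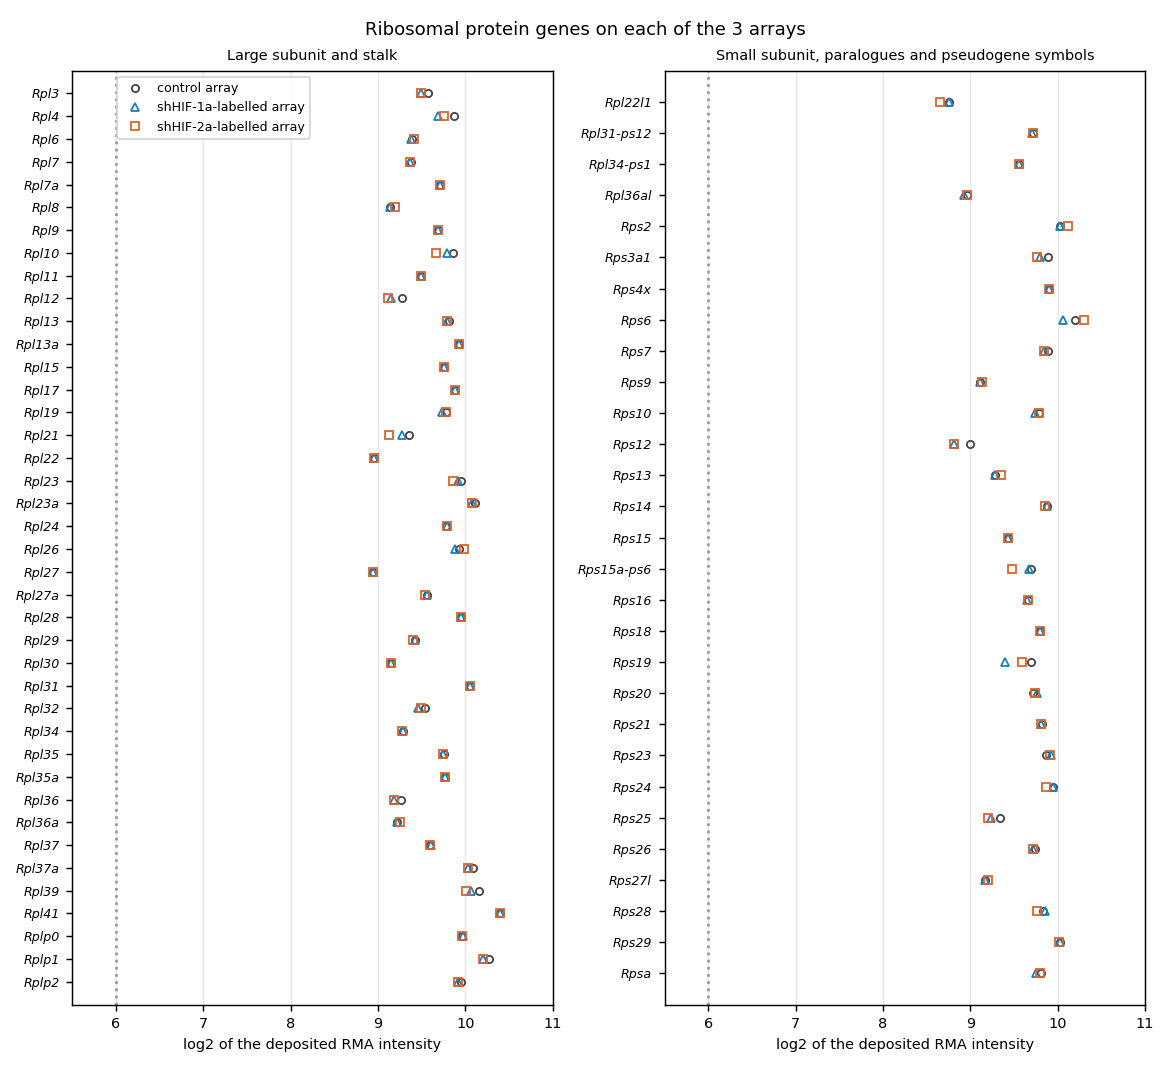
Each row is 1 measured ribosomal protein gene, and the x axis is log2 of the deposited intensity, with a circle for the control array, a triangle for the shHIF-1a-labelled and a square for the shHIF-2a-labelled array; the dotted line marks the minimum of 6. The 3 symbols overlap for most genes, and intensities run from 402 to 1342, far above the minimum.

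The deposited values were exactly equal for many members. The 14 members at 1 value on all 3 arrays were Rpl7a, Rpl11, Rpl13a, Rpl22, Rpl27, Rpl28, Rpl30, Rpl31, Rpl35a, Rpl41, Rps4x, Rps15, Rps18 and the pseudogene symbol Rpl34-ps1. Another 15 were equal on the shRNA arrays alone, 14 on the control and shHIF-1a-labelled arrays alone and 6 on the control and shHIF-2a-labelled arrays alone, which left 20 with 3 different values. At least 1 pair of arrays was thus equal for 49 of 69 members (71.0%), against 39.9% of the 188 other genes whose mean intensity lay within the members' range and 37.5% of all 2669 other measured genes. These counts rest on the representative probe sets. Another bright probe set of Rpl41 read 948 on the control array and 895 on both shRNA arrays. Other measured probe sets of Rpl27 read 299, 299 and 293, and 274, 275 and 275. Those of Rpl31 and Rps15 were equal as well, at 1018 and 453. Equal values arise in RMA when the summary of a probe set settles on the same level for several arrays, so a small difference may be unrecorded.

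The direction of what remained depended on the scaling between arrays. As deposited, 35 members were lower, 6 higher and 28 equal on the shHIF-1a-labelled array, against 25.7% of measured genes lower, 51.7% higher and 22.6% equal. On the shHIF-2a-labelled array 36 were lower, 13 higher and 20 equal, against 30.6% lower, 52.7% higher and 16.6% equal. On the shHIF-2a-labelled array relative to the shHIF-1a-labelled one, 21 were lower, 19 higher and 29 equal, against 32.4% lower, 44.3% higher and 23.3% equal. With each array centred on the median of its measured probe sets, 69 and 67 members were lower than control, against 64.4% and 59.8% of all measured genes. Centring moves each gene by a constant, so it also turns equal values into lower ones, and the medians of all measured genes became -0.06 and -0.05. After cyclic loess, which levels the arrays within each range of brightness, 57 and 56 members were higher, against 47.6% and 50.5%. Between the shRNA arrays 48 members were higher after centring, against 67.7% of measured genes, and 49 after loess, against 53.8%. The members' median log2 difference moved with these choices from 0.00 as deposited to -0.072 after centring and 0.047 after loess on the shHIF-1a-labelled array. On the shHIF-2a-labelled array it moved from -0.01 to -0.073 and 0.059. A shift of the whole class against control thus had no settled sign. The split of all measured genes at 1.2-fold moved too, from 270 higher and 51 lower on the shHIF-1a-labelled array to 179 and 94 after centring and 175 and 83 after loess. For the shHIF-2a-labelled array it moved from 501 and 257 to 382 and 345 and to 387 and 307.

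**Figure D2:**
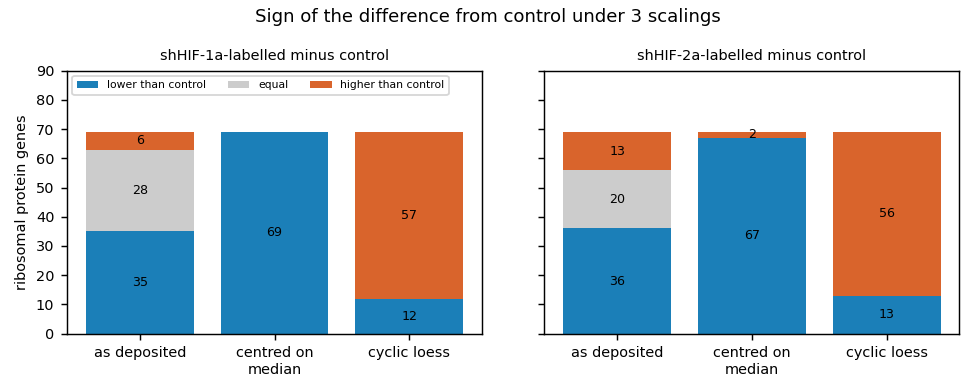
Bars count the 69 measured members that were lower than, equal to or higher than control on the shHIF-1a-labelled (left) and shHIF-2a-labelled (right) array, with the arrays as deposited, centred on their medians or scaled by cyclic loess. Most members are lower after centring (69 and 67, where 64.4% and 59.8% of all measured genes are lower too) and higher after loess (57 and 56, where 47.6% and 50.5% of all measured genes are higher).

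The spread among the members was small in each comparison. The SD of their log2 differences was 0.06 on the shHIF-1a-labelled array, 0.07 on the shHIF-2a-labelled array and 0.06 between the shRNA arrays. For the 188 other genes in the same range of intensity the SDs were 0.12, 0.25 and 0.25, and 2.13%, 12.2% and 13.8% of those genes differed by at least 1.2-fold. Within that range these genes were dimmer, with a median of 562 on the control array against 864 for the members. For 25 members more than 1 probe set was measured, and the pooled SD within a gene was 0.03 on the shHIF-1a-labelled array, 0.04 on the shHIF-2a-labelled array and 0.04 between the shRNA arrays. The spread between members was thus larger than that between probe sets of 1 gene, which is technical and within a pair of arrays; cultures may differ by more or less.

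**Figure D3:**
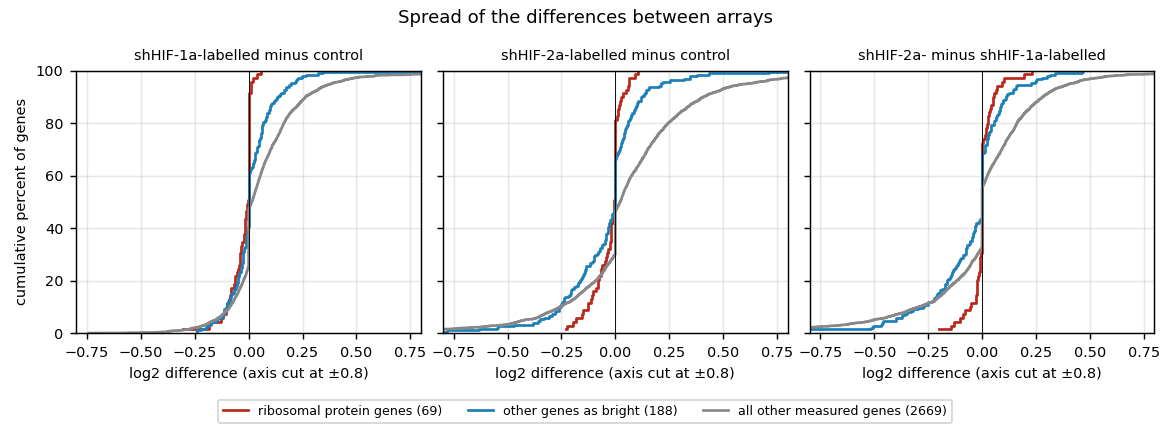
Curves give the cumulative percent of genes against the log2 difference in each comparison. They cover the 69 ribosomal protein genes, 188 other genes within their range of intensity but of lower median, and all 2669 other measured genes. The x axis is limited and leaves out larger differences. The curve of the ribosomal protein genes is the steepest in all 3 panels, and its vertical step at 0 holds the equal values.

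The largest difference of a measured member was in the small subunit. Rps19, a protein needed to mature the RNA of the small subunit and the gene most often mutated in Diamond-Blackfan anaemia (Entrez gene 20085), read 829 on the control array, 672 on the shHIF-1a-labelled and 769 on the shHIF-2a-labelled array. The control value was the highest and the shHIF-1a-labelled the lowest, a log2 difference of -0.30 that became -0.24 after cyclic loess, under 1.2-fold, and -0.37 after centring. Its difference on the shHIF-2a-labelled array was -0.11, and 1 probe set reads the gene. Rps12, a protein of the beak of the small subunit, read 512 on the control array and 451 on both shRNA arrays, a difference of -0.18 from control. Its other probe set read 441 and 405, so both were lower on the shRNA arrays as deposited.

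Rps6, the substrate of the S6 kinases downstream of mTORC1 (Entrez gene 20104), differed most between the shRNA arrays. It read 1171 on the control, 1071 on the shHIF-1a-labelled and 1258 on the shHIF-2a-labelled array. These are differences of -0.13 and 0.10 from control and of 0.23 between the shRNA arrays. A second, dimmer probe set of the gene did not show the same order: at 63.3, 56.9 and 53.0, it was lowest on the shHIF-2a-labelled array. The difference of 0.10 on that array was thus not shared by the probe sets of Rps6.

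Of the other small subunit members, Rps25, which several viral and cellular internal ribosome entry sites need, read 646, 601 and 591 in the order control, shHIF-1a-labelled and shHIF-2a-labelled. Rps2, a protein of the mRNA entry channel, read 1043, 1043 and 1112, but its other bright probe sets read 1029, 1029 and 1020, and 899.8, 908 and 893. Its difference of 0.09 was thus seen on 1 of 3 probe sets. Rps13 read 623 on the control and shHIF-1a-labelled arrays and 651 on the shHIF-2a-labelled array, but its other measured probe set read 525, 502 and 525. Rps23, a protein of the decoding centre, was lowest on the control array, at 931 against 969.9 and 964, and 1 probe set reads it. Rps20 read 842, 866 and 852, but its other bright probe set read 775, 783 and 772, where control was not the lowest. Rps24 read 983, 983 and 931, and its next probe sets were also lowest on the shHIF-2a-labelled array, at 958.7, 958.7 and 902, and at 459, 459 and 432. Rps28 read 912, 926 and 871, while its other probe set read 872 on the control array and 865 on both others, so the order of the shRNA arrays was seen on 1 of 2 probe sets. Rpsa, which is also known as the laminin receptor precursor, read 893, 863 and 892. The 23 measured small subunit genes had medians of 0.00 on both shRNA arrays against control, with 11 lower and 3 higher on the shHIF-1a-labelled array and 12 lower and 6 higher on the shHIF-2a-labelled array.

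In the large subunit 0 of 37 measured members passed 1.2-fold in any of the 3 comparisons as deposited, set against the shares of measured genes given above. After centring, Rpl21 did so on the shHIF-2a-labelled array, at -0.30. Rpl4, a protein that lines the exit tunnel of the nascent chain, read 933, 822 and 863, a difference of -0.18 on the shHIF-1a-labelled array. Rpl12, at the base of the stalk, read 617, 567 and 556. Rpl21 read 656, 619 and 559.8, which at -0.23 was the most negative difference of any measured member on the shHIF-2a-labelled array. Its other bright probe set read 608 on the control array and 569 on both shRNA arrays, so the further step down on the shHIF-2a-labelled array was seen on 1 of these probe sets. Rpl10, one of the last proteins to join the large subunit in the cytoplasm, read 927, 888 and 810.3, and its other probe set read 845, 821 and 752. Both probe sets of Rpl10 were in the same order, with differences of -0.19 and -0.17 on the shHIF-2a-labelled array. Rpl39, a small protein of the exit tunnel, read 1142, 1066 and 1025.

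Few large subunit genes were higher than control as deposited. Rpl26, known to bind p53 mRNA, read 970.0, 943 and 1012, and Rpl8, near the catalytic centre, read 565, 565 and 588. Rpl24 read 876 on the control array and 884 on both others, and Rpl37 read 776, 782 and 776. The 37 genes had a median of 0.00 on the shHIF-1a-labelled array, with 19 lower, 2 higher and 16 equal, and of -0.01 on the shHIF-2a-labelled array, with 19 lower, 6 higher and 12 equal. Rpl11 and Rpl23 bind the p53 inhibitor MDM2 when ribosome assembly is disturbed. Rpl11 stood at 721 on every array, and Rpl23 read 985, 964 and 931. The other bright probe set of Rpl23 read 983, 993 and 882, lowest on the same array. The stalk proteins recruit the GTPase factors of translation. Rplp0, often used as a reference gene, read 997, 1004 and 997. Rplp1 read 1234 on the control array and 1179 on both shRNA arrays, and Rplp2 read 988 and 966.

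**Figure D4:**
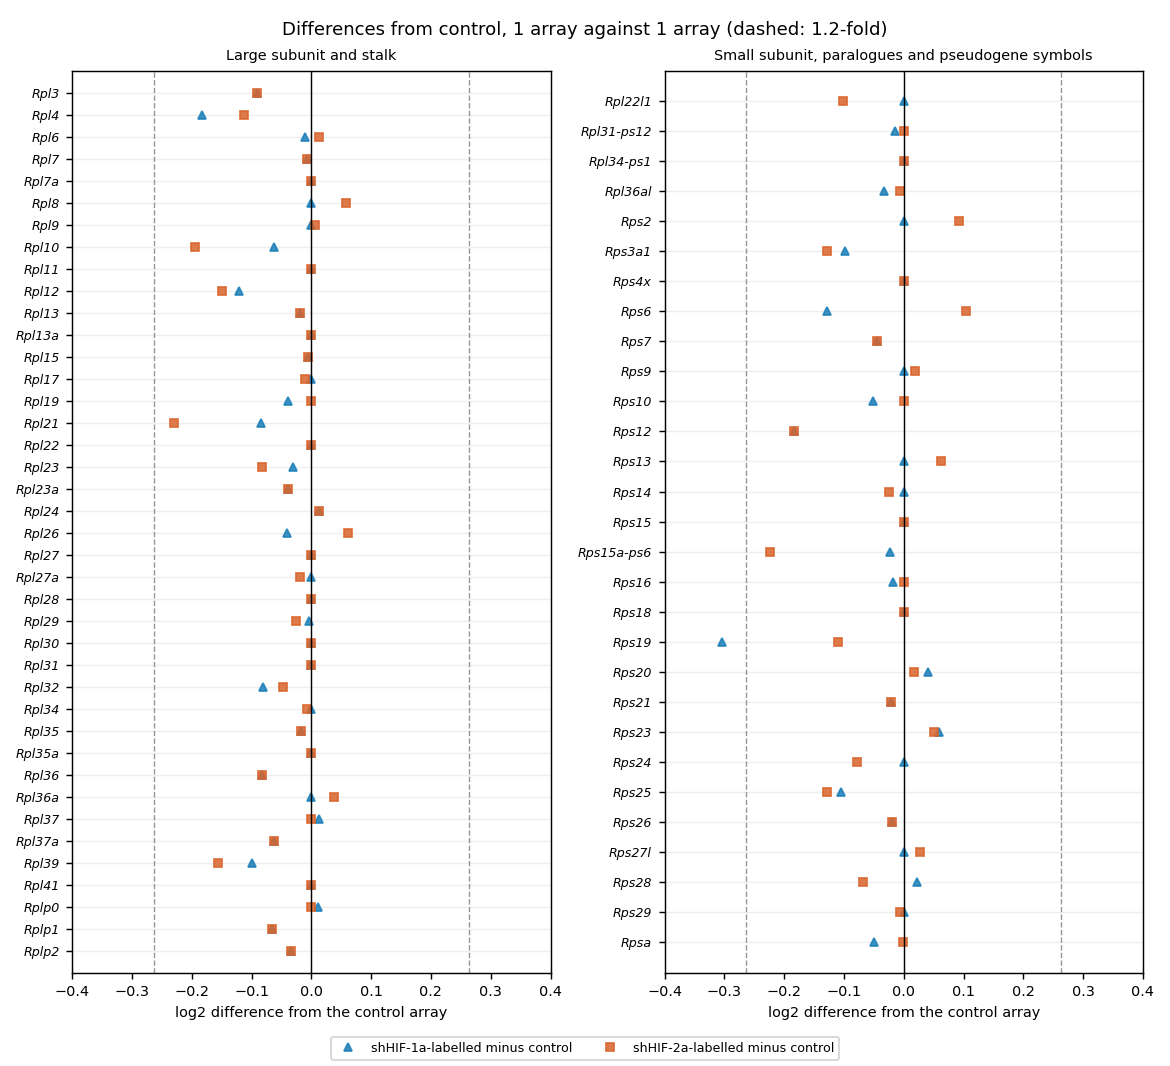
Each row is 1 measured member, and the x axis is the log2 difference from the control array as deposited for the shHIF-1a-labelled (triangles) and shHIF-2a-labelled (squares) arrays, which share that control; dashed lines mark 1.2-fold. Only the triangle of Rps19, at -0.30, lies beyond a dashed line.

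Paralogues replace or resemble a standard ribosomal protein in certain tissues or states. Rpl22l1, the paralogue of Rpl22, read 431 on the control and shHIF-1a-labelled arrays and 402 on the shHIF-2a-labelled array, while Rpl22 stood at 495 on every array. A second probe set of Rpl22, whose mark shows that it is shared with other transcripts, was dim and read 56.4, 45.5 and 32.4, a difference of -0.80 on the shHIF-2a-labelled array that the bright probe set did not show. Rpl36al read 499, 488 and 497 and its partner Rpl36a 596, 596 and 611. Rps27l, a p53-induced paralogue of Rps27, read 575, 575 and 587, and its next probe sets read 459, 459 and 475, and 398, 429 and 429. Rpl39l, known from the testis, was under the minimum at 23.9, 25.01 and 23.9, while Rpl39 read 1025 or more on each array. Rpl3l, the form of heart and skeletal muscle, lay under the nonspecific level at 1.17 or less, while Rpl3 read 763 on the control array and 717 on both shRNA arrays. Rpl7l1 came close to the minimum, at 56.7, 50.3 and 59.5, but its second probe set read 38.1, 51.1 and 57.8. These differ in sign on the shHIF-1a-labelled array, by -0.17 and 0.42, so no direction can be given for Rpl7l1 there. Rpl7 read 664 on the control array and 661 on both others, and its next probe set 657 and 621.

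Rps19bp1, a dim member, was higher on both shRNA arrays as deposited. Its product, also called AROS, binds Rps19 and the deacetylase SIRT1 and is no part of the finished ribosome. The gene (Entrez gene 66538) read 40.2 on the control, 48.8 on the shHIF-1a-labelled and 63.7 on the shHIF-2a-labelled array, just under the minimum of 64 on the last. The control array was lowest and the shHIF-2a-labelled highest, with log2 differences from control of 0.28 and 0.66 and of 0.39 between the shRNA arrays. Among the representative probe sets of the 75 members and with no minimum, it alone was past 1.2-fold upward in each comparison, where 21.0%, 24.8% and 9.55% of all genes were. With a minimum of 16, 1501, 1975 and 893 of 6231 genes were. The dim structural member Rpl14 was also higher than control, by 0.18 on both shRNA arrays. The part of brightness in the contrast between Rps19bp1 and the bright members was not tested.

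The remaining members under the minimum were Rpl14 and Rps15a. Rpl14 read 15.9 on the control array and 18.0 on both shRNA arrays, on its only probe set annotated to 1 gene. Another 4 probe sets, annotated to Rpl14 together with its pseudogene and outside the rule, read 469.8 to 626 on the control array. These 4 were lower on both shRNA arrays as deposited, so neither the level nor the direction of Rpl14 is settled by the dim probe set. Rps15a stood at 1.38 on every array, under the nonspecific level, although its protein is a standard part of the small subunit. The pseudogene symbol Rps15a-ps6, on a probe set marked as shared between transcripts, read 828, 815 and 709.5. At -0.22 it had one of the most negative differences on the shHIF-2a-labelled array, and the transcript behind it is uncertain. Over all 139 probe sets of the members, 34 stayed under 64 on every array, 15 of them under the nonspecific level, so genes with a bright probe set often had a dim one as well.

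Genes that build the ribosome, rather than form it, differed from the structural genes in their values. Of 54 ribosome biogenesis genes on the arrays, 35 were higher and 2 lower by 1.2-fold or more on the shHIF-2a-labelled array when no minimum was set, where 24.8% of all 17097 genes were higher and 12.7% lower. Their median difference was 0.38 against 0.00 for all genes. On the shHIF-1a-labelled array 12 of 54 were at least 1.2-fold higher, against 21.0% of all genes, 2 were at least 1.2-fold lower, against 10.5%, and the median was 0.09. Between the shRNA arrays 28 of 54 were at least 1.2-fold higher on the shHIF-2a-labelled array, against 9.55% of all genes, and 0 at least 1.2-fold lower, against 5.17%. There 0 of 54 were below 0 at all, against 20.3%. Of all 17097 genes, 6231 reached 16 on at least 1 array. Among these 6231, 1975 were at least 1.2-fold higher on the shHIF-2a-labelled array, with a median of 0.095, and 1501 on the shHIF-1a-labelled array. Between the shRNA arrays 893 were, and 27.8% were below 0. The biogenesis genes were not counted at that minimum, and the shares over all genes include many dim ones. No test stands behind these counts. The upper quartile of all probe sets was lower on the control array (9.81) than on the shRNA arrays (13.0 and 13.9), and its part in the comparisons with control was not tested.

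With the minimum of 64, 21 biogenesis genes were measured, but 10 of them were under 64 on the control array and so counted only through an shRNA array. The 15 with a mean of at least 64 over the arrays had a median of 0.35 on the shHIF-2a-labelled array. Of them 8 were at least 1.2-fold higher there, against 15.1% of genes with such a mean. Among these 8, Rrs1, Nmd3, Nip7 and Wdr43 were under 64 on the control array, at 56.9, 60.1, 57.5 and 51.1. Their means thus reached 64 only through the shRNA arrays, so the 15 are still a partly selected group. Fbl, Nop56, Nop58 and Eif6, also among the 8, read 76.3 or more on the control array and were higher by 0.35, 0.47, 0.39 and 0.46. The rest of the 15, also at 64 or more there, differed less upward or went down. Nhp2, Emg1, Npm1 and Sbds differed by 0.17, 0.17, 0.08 and 0.05. Imp3 was equal, and Rrp1 and Nop10 differed by -0.07 and -0.27. The scalings do not remove the selection of the 15. For these 15 the median on the shHIF-2a-labelled array was 0.28 after centring and 0.29 after loess, with 8 at least 1.2-fold higher under both. On the shHIF-1a-labelled array their median was 0.00 as deposited and -0.07 after either scaling. Rrs1, an assembly factor of the large subunit, was 2.05-fold higher on the shHIF-2a-labelled array, at 117 against 56.9 on the control array and 76.6 on the shHIF-1a-labelled array. After loess and centring its log2 differences were 0.95 and 0.97, under 2-fold. The other biogenesis genes past 2-fold against control were all under the minimum: Nop2 at 14.2, 22.8 and 31.7, Imp4 at 12.3, 24.8 and 28.6, Ddx56 at 4.66, 9.04 and 12.2, and Rrp12, which began under the nonspecific level, at 1.90, 3.02 and 4.65. Each of these 4 was lowest on the control and highest on the shHIF-2a-labelled array. Fbl, the methyltransferase of the nucleolus, read 106, 110.5 and 134, and Nop56, its partner in box C/D particles, read 76.3, 69.7 and 106. Among the brighter members the histone chaperone gene Npm1 read 448, 448 and 472, and Nop10, of the pseudouridylation particles, read 297 on the control array and 246 on both others. The minimum was reached by 21 of 54 biogenesis genes and by 69 of 75 ribosomal protein genes, and the part of brightness in this contrast was not tested.

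**Figure D5:**
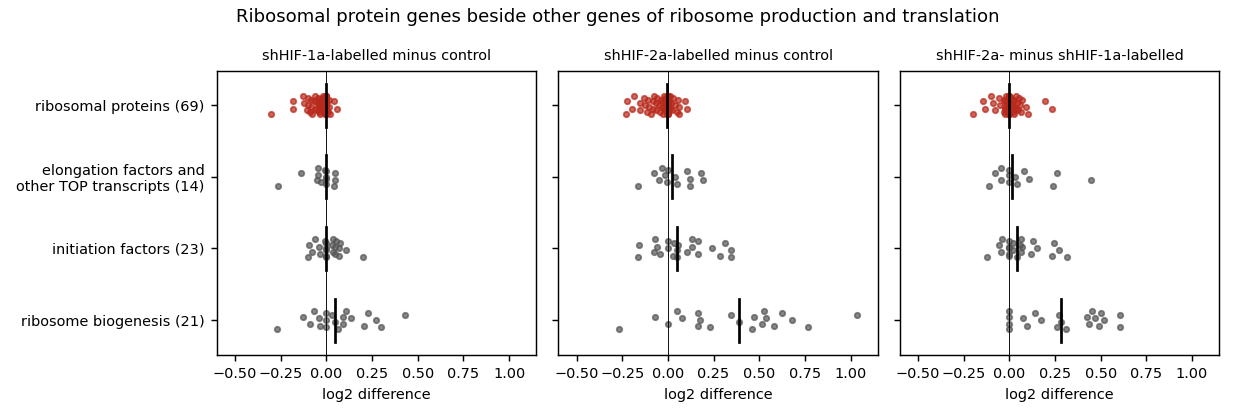
Points are measured genes of 4 groups (ribosomal proteins, elongation factors with other TOP transcripts, initiation factors, ribosome biogenesis), the x axis is the log2 difference in each comparison, and black bars are medians. The ribosome biogenesis genes reach to 1.03 on the shHIF-2a-labelled array with a median of 0.39, and the ribosomal protein genes lie between -0.23 and 0.10; 10 of the 21 biogenesis genes drawn, Rrs1 at 1.03 among them, were under 64 on the control array and were kept only through an shRNA array, so their median is a description of a selected group.

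Other transcripts known for a TOP tract or a role in translation lay closer to the ribosomal protein genes. Of 14 measured elongation factors and TOP transcripts, 0 passed 1.2-fold on the shHIF-2a-labelled array, against 18.3% of measured genes higher and 9.39% lower, and the median was 0.02. On the shHIF-1a-labelled array 0 were higher, against 9.86%, 1 was lower, against 1.86%, and the median was 0.00. The gene below that limit was Hnrnpa1, a splicing factor, at 89.0, 74.1 and 101. Eef1a1, the elongation factor that delivers aminoacyl-tRNA, read 1209.8 on the control and shHIF-1a-labelled arrays and 1171 on the shHIF-2a-labelled array, and Eef2, the translocase, read 636, 614 and 568. Of 23 measured initiation factors 4 were at least 1.2-fold higher on the shHIF-2a-labelled array, a share near the 18.3% of measured genes, with a median of 0.05. They were Eif3b, Eif3c and Eif3d, subunits of the scaffold that joins mRNA to the small subunit, and Eif5a, which relieves stalled ribosomes. Eif5a read 525, 603 and 668.

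Regulators upstream of ribosome production were mostly dim. Of 12 genes of RNA polymerase I and its factors 3 were measured, and without a minimum 5 of 12 were higher and 0 lower by 1.2-fold or more on the shHIF-1a-labelled array, against 21.0% and 10.5% of all genes. On the shHIF-2a-labelled array 6 were higher and 0 lower, against 24.8% and 12.7%. Among them Polr1e, a polymerase subunit, was past 2-fold, at 4.64, 8.17 and 13.6. Of 15 genes of mTORC1 and regulators of TOP transcripts 5 were measured. Without a minimum, 6 of 15 were at least 1.2-fold higher on the shHIF-1a-labelled array (21.0% of all genes), 7 on the shHIF-2a-labelled array (24.8%) and 0 between the shRNA arrays (9.55%). In each comparison 0 were at least 1.2-fold lower, against 10.5%, 12.7% and 5.17%. Most of the 6 were dim. Rps6kb2 read 1.45, 2.30 and 2.30, under the nonspecific level, and Mlst8 read 3.98, 4.88 and 4.64. Deptor read 5.15, 8.17 and 8.17, and Rptor read 6.10, 9.47 and 9.60. Myc, the transcription factor known to drive ribosome production, read 55.2, 67.7 and 78.9, and Larp1 read 75.6, 85.2 and 97.4. Both were lowest on the control array as deposited. Eif4ebp1, a translation repressor that mTORC1 inactivates, read 243 on the control and shHIF-1a-labelled arrays and 281 on the shHIF-2a-labelled array, and the hypoxia-induced mTORC1 inhibitor gene Ddit4 read 245, 245 and 236.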

How the data were processed

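Total RNA (1 µg) was labelled with biotin for single-colour Affymetrix arrays, per the labels' protocols. The authors deposited 1 table of intensity values made with RMA, per the submitters' processing notes, with version and settings not given in the sources used here. The deposited intensities are linear, as their range shows (0.63 to 1747), and log2 was taken here with no further scaling. RMA usually makes the distributions of arrays alike, so a change shared by all transcripts would not be seen. Of 45141 probe sets, 28898 were annotated to 1 gene, 551 to several and 15692 to none (104 of these are controls). All 75 members matched RefSeq (GRCm38.p6) by Entrez identifier. Values count as equal within 1e-06 on the log2 scale. Genes were counted by size and sign, with no test, and 1 array per group limits the precision. Members and lists were chosen with earlier results of these data known. Named genes are the 6 highest and lowest members per comparison, members past 2-fold or under the minimum, paralogue pairs, the stalk, Rpl11, Rpl23, Rpsa and Rps6, and list genes past 2-fold; other list genes were named after their values were seen. Cyclic loess used limma 3.58.1; the counting was tested on simulated data.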

Additional observations from a re-analysis of the deposited data

How the results depend on the processing

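Medians and counts for the ribosomal protein genes were recomputed under 11 alternatives, 1 of them (a mean of 64 over the arrays, used with the scalings for the biogenesis genes too) chosen after seeing the data; of 123 values 110 stayed close to the reported one and 13 moved. Cyclic loess gave medians of 0.047 and 0.059 on the shHIF-1a-labelled and shHIF-2a-labelled arrays, and 0 genes at least 1.2-fold lower on the first. Centring gave -0.072 and -0.073, and 2 genes at least 1.2-fold lower on the shHIF-2a-labelled array, Rpl21 and Rps15a-ps6. A minimum of 16, or none, gave 1 gene at least 1.2-fold higher in each comparison, Rps19bp1, which the minimum of 64 leaves out. Probe sets without a shared mark left 14 members and 0 genes at least 1.2-fold lower on the shHIF-1a-labelled array, because Rps19 has no such probe set. A minimum above 64, 32 added before log2, the mean of probe sets, the mean in place of the median and the structural genes alone changed none of these medians or counts by more than the limits used. No paired analysis was possible because each group has 1 array. Background is no limit for the 69 bright members, but equal values hide small differences.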

Other observations

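A further 15 probe sets are annotated to a ribosomal protein symbol together with another gene and entered no comparison; 6 of them reached 64. Among these, 4 probe sets share 1 annotation, the large subunit gene Rpl14 and its pseudogene. Their control values ran from 469.8 to 626, those labelled shHIF-1a from 406 to 547 and those labelled shHIF-2a from 406 to 556. All 4 were lower than control on both shRNA arrays as deposited, by log2 differences from -0.22 to -0.15 and from -0.26 to -0.12, and between the shRNA arrays they differed by -0.04 to 0.02. The remaining 2 of the 6, each with another annotation, went otherwise: 1 stood at 897 on every array, and the other read 936, 925 and 986 in the order shCTR, shHIF-1a and shHIF-2a.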
